A study of Mus musculus with 8 samples.

Results

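Secreted Wnt antagonists are extracellular proteins that limit Wnt signaling, and 9 genes that encode them were followed in fetal mouse hearts: *Sfrp1*, *Sfrp2*, *Sfrp4*, *Sfrp5*, *Frzb*, *Dkk1*, *Dkk2*, *Dkk3* and *Wif1*. They were chosen by symbol among the 26590 gene symbols of the deposited table and hold 12 of its 51414 transcript rows. For each gene the row with the highest average of both genotype means was used, so the choice of row rests on the level and the levels are a description. *Sfrp1* heads the family because its difference between genotypes was already known from these hearts, and its test below is therefore no independent evidence.

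The hearts came from 4 wild-type (*Dio3*+/+) and 4 knockout (KO, *Dio3*-/-) fetuses of the C57BL/6J strain, each RNA sample from an individual mouse and every heart untreated. The design text describes the fetuses as male, but *Xist*, expressed from the inactive X chromosome of females, had means of 35.64 RPKM (CV 0.99) in wild-type and 39.97 RPKM (CV 0.55) in KO hearts. Male hearts alone would not give such levels. Sex could not be taken into account, since values of single hearts are not given. *Dio3* encodes the type 3 deiodinase, which inactivates thyroid hormones and is lacking in *Dio3*-/- mice. The titles of all 8 samples give E13.5. The age field matches the titles for 6 samples and reads E18.5 for the *Dio3*-/- samples numbered 3 and 4, and the Methods name an age 1 day later than the titles. The table gives, for each transcript and genotype, only the authors' mean in RPKM (reads per kilobase of transcript scaled to library size) and their coefficient of variation (CV), the ratio of SD to mean. Single hearts and read totals are not in it, and the Methods give aligned reads only as a range and an average over samples. No depth could therefore be set beside a value, and no result could be recalculated without the 2 hearts of uncertain age.

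Wnt proteins are secreted, lipid-modified ligands that bind Frizzled receptors together with the co-receptors LRP5 and LRP6 and thereby stabilize β-catenin, a co-activator of TCF and LEF transcription factors. Secreted frizzled-related proteins (the Sfrp genes and *Frzb*) carry a cysteine-rich domain like that of the Frizzled receptors and bind Wnt ligands. WIF1 also binds Wnt ligands, whereas DKK1 and DKK2 act on the LRP co-receptors, and DKK3 is a divergent relative. In the embryo, the heart forms where Wnt activity through β-catenin is held back, and the same pathway later takes part in myocardial growth and in the formation of the valves.

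With 4 hearts of known mean and SD, no heart can lie further than 1.5 SD from the mean, and the highest heart lies at least 0.5 SD above it. These limits, widened by the rounding of the table, are given below in place of the values of single hearts. Differences were tested with limma on log2(mean + 0.5 RPKM), two-sided, with Benjamini-Hochberg adjustment over all rows in which a genotype mean exceeded 1 RPKM. Of the 9 genes, 7 were tested. *Sfrp4* and *Dkk1* were below that limit in both genotypes.

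*Sfrp1* was lower in KO hearts, and it was the only 1 of the 7 tested antagonists whose adjusted *P* value by limma was under 0.05. Across all 14657 genes tested, 2.29% passed in either direction and 0.382% passed as lower in KO hearts. *Dkk3* and *Sfrp5* differed by more than the SD of either genotype, but their adjusted *P* values were above the threshold. *Sfrp2*, *Frzb*, *Wif1* and *Dkk2* differed by less than the SD of wild-type hearts. An unadjusted *P* value under 0.05 was found for 3 of the 7 genes (*Sfrp1*, *Dkk2* and *Dkk3*) and for 19.7% of all genes tested. Nothing is read from that count, since *Sfrp1* was chosen with its difference known and *Dkk2* passed the filter on low values through its wild-type mean. Welch's test calculated from the same summaries called 0 of the 7, with *Sfrp1* at an adjusted *P* value of 0.0502. It called 0.184% of all genes, all of them higher in KO hearts and 0 lower.

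**Figure D1:**
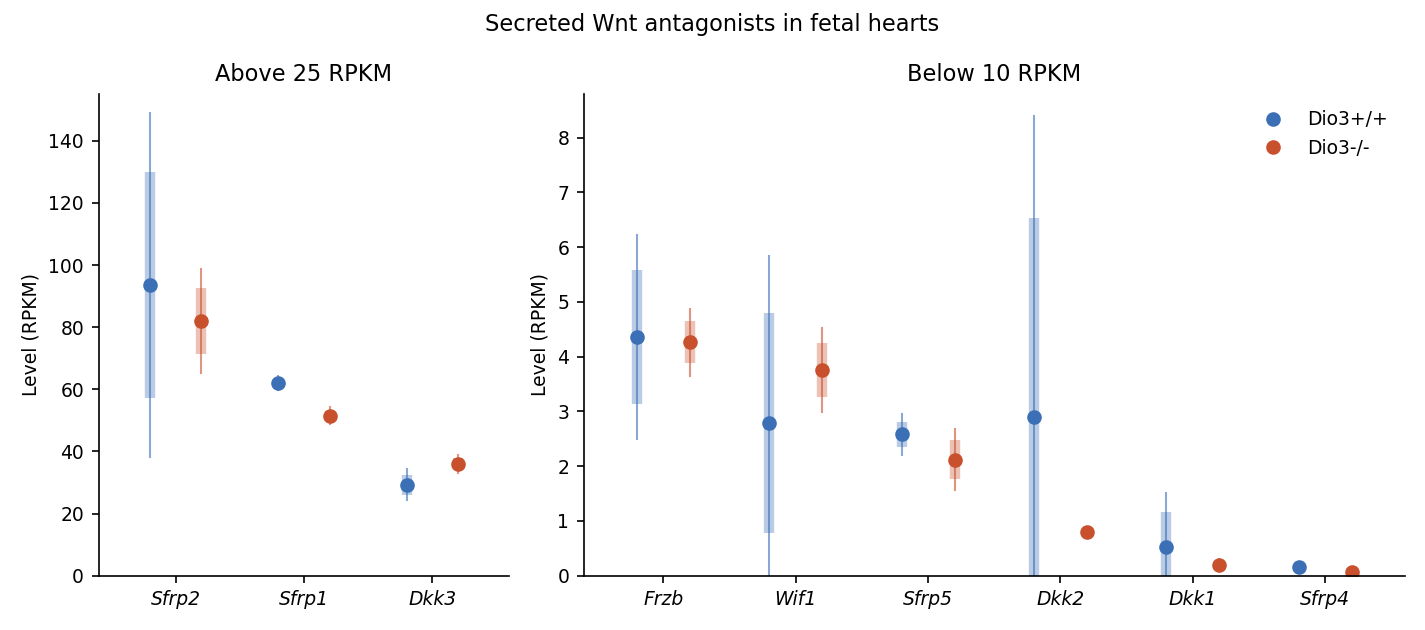
Level of each secreted Wnt antagonist in RPKM, in wild-type (blue) and KO (red) hearts. Points are the authors' genotype means of 4 hearts, broad bars span 1 SD to each side (cut at 0), and thin lines span the interval that must hold every heart. The intervals of *Sfrp1*, 59.8 to 64.4 and 48.8 to 54.2 RPKM, do not meet, while those of *Sfrp2* and *Dkk2* are wide in wild-type hearts.

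*Sfrp1* encodes a Wnt-binding antagonist and was among the abundant genes of these hearts, since 95.4% of gene symbols had a lower mean. Its mean was 62.10 RPKM in wild-type hearts, with a CV of 0.02, and 51.47 RPKM in KO hearts, with a CV of 0.03. Every wild-type heart therefore lay between 59.8 and 64.4 RPKM and every KO heart between 48.8 and 54.2 RPKM. All 4 KO hearts, including the 2 of uncertain age, were below all 4 wild-type hearts. The genotypes could likewise not overlap, in either direction, in 3.86% of all genes tested, and with the KO hearts lower in 0.457%. No other antagonist was in that class.

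The log2 difference of *Sfrp1* was −0.27 (standard error 0.04, 95% confidence interval −0.36 to −0.18, adjusted *P* = 0.0122 by limma), so the level fell by 17.0%. This was a small change among the genes that were lower in KO hearts. Of the 56 genes called lower, 52 had a larger fall than *Sfrp1*, and their median log2 difference was −0.59. Its spread between hearts was narrow, and 159 of the tested genes (1.08%) had CVs as low as those of *Sfrp1* in both genotypes, and the medians over all tested genes were 0.09 in wild-type and 0.06 in KO hearts. *Sfrp1* has a single row in the table, so no other transcript could be compared. These are whole hearts, in which fewer cells of a type and less RNA per cell cannot be told apart.

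*Sfrp2* encodes a close relative of SFRP1 and had the highest level of the family. Its mean was 93.55 RPKM in wild-type hearts (CV 0.39) and 81.97 RPKM in KO hearts (0.13). The highest wild-type heart was at 112 RPKM or more and the lowest at 75.5 RPKM or less, whereas all KO hearts lay between 65.4 and 98.6 RPKM. At least 1 wild-type heart was thus above every KO heart. The log2 difference of −0.19 had a 95% confidence interval from −0.72 to 0.34 (adjusted *P* = 0.724 by limma), which includes a fall as large as that of *Sfrp1*.

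*Sfrp5*, another frizzled-related gene, was expressed at a low level. Its mean was 2.58 RPKM in wild-type hearts (CV 0.09) and 2.12 RPKM in KO hearts (0.17). The wild-type hearts lay between 2.21 and 2.95 RPKM and the KO hearts between 1.56 and 2.68 RPKM, so the genotypes may overlap. Its log2 difference of −0.23 was similar in size to that of *Sfrp1*, with an interval from −0.48 to 0.01 and an adjusted *P* value of 0.291 by limma.

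*Frzb*, the remaining frizzled-related gene above 1 RPKM, had nearly equal means of 4.36 RPKM in wild-type (CV 0.28) and 4.26 RPKM in KO hearts (0.09). The log2 difference was −0.03, with an interval from −0.39 to 0.33 (adjusted *P* = 0.945 by limma). The highest wild-type heart was at 4.95 RPKM or more and was above every KO heart, none of which exceeded 4.87 RPKM. *Sfrp4* was close to the limit of the table, with means of 0.15 RPKM (0.18) and 0.07 RPKM (0.55), and its other row had 0.10 and 0.06 RPKM.

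*Dkk3*, which encodes the divergent member of the Dickkopf family, was the abundant antagonist whose mean was higher in KO hearts. The mean was 29.32 RPKM in wild-type (CV 0.11) and 35.96 RPKM in KO hearts (0.05). The wild-type hearts lay between 24.3 and 34.4 RPKM and the KO hearts between 33.0 and 38.9 RPKM, so the intervals met over a short stretch. The log2 difference was 0.29 (standard error 0.08, interval 0.12 to 0.46), with an adjusted *P* value of 0.0810 by limma. Its other transcript row, which can share reads with the first, had means of 28.80 and 35.37 RPKM and an adjusted *P* value of 0.0797.

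*Dkk2*, a ligand of LRP6, had the largest difference of the family and a wide spread in wild-type hearts only. Its mean was 2.89 RPKM in wild-type hearts, with a CV of 1.26, and 0.79 RPKM in KO hearts, with a CV of 0.05. The highest wild-type heart was between 4.70 and 8.39 RPKM, the lowest was at 1.08 RPKM or less, and the KO hearts lay between 0.720 and 0.861 RPKM. The log2 difference of −1.39 had an interval from −2.78 to −0.0040 (unadjusted *P* = 0.0495, adjusted *P* = 0.265 by limma). It passed the filter on low values through the wild-type mean alone.

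*Dkk1*, the best studied antagonist of the LRP co-receptors, had the same pattern of spread at a lower level and was not tested. Its mean was 0.53 RPKM in wild-type (CV 1.20) and 0.20 RPKM in KO hearts (0.34). The highest wild-type heart was at 0.839 RPKM or more, and no KO heart exceeded 0.311 RPKM.

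*Wif1* was spread widely in wild-type hearts as well, but with a lower mean there. The mean was 2.79 RPKM in wild-type (CV 0.72) and 3.76 RPKM in KO hearts (0.13). The lowest wild-type heart was at 1.80 RPKM or less, below every KO heart, all of which were at 2.99 RPKM or more. The log2 difference of 0.37 had an interval from −0.44 to 1.18 (adjusted *P* = 0.632 by limma), and the other row gave 0.38.

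**Figure D2:**
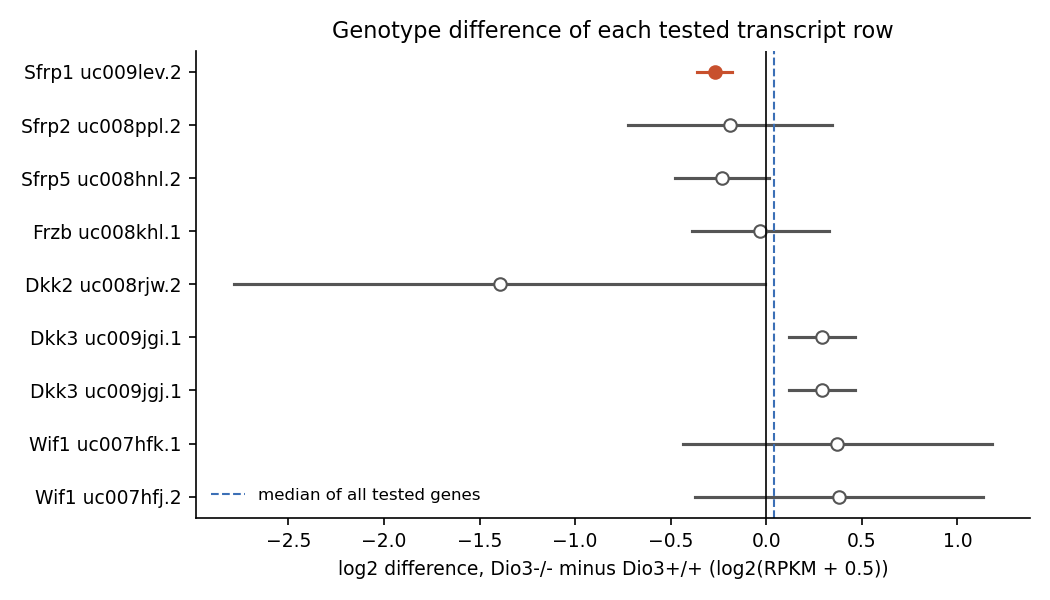
Log2 difference between KO and wild-type hearts for the 9 tested transcript rows, with 95% confidence intervals from limma. The filled point is the row with an adjusted *P* value under 0.05, and the dashed line is the median of all tested genes (0.04). The interval of *Sfrp1* is the narrowest and those of *Dkk2* and *Wif1* are the broadest.

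The levels of the 9 genes, compared per transcript length, fell into a few steps. In KO hearts the order was *Sfrp2*, *Sfrp1*, *Dkk3*, *Frzb*, *Wif1*, *Sfrp5*, *Dkk2*, *Dkk1* and *Sfrp4*. Among these neighbors, *Frzb* and *Wif1* differed by less than the sum of their SDs. In wild-type hearts, *Sfrp2* and *Sfrp1* did not differ beyond their spread, nor did *Frzb*, *Dkk2*, *Wif1* and *Sfrp5* as neighbors in that order, nor *Dkk1* and *Sfrp4*. *Sfrp2*, *Sfrp1* and *Dkk3* together made up 93.3% of the summed level of 198 RPKM in wild-type and 93.8% of 181 RPKM in KO hearts. The share of *Sfrp1* was 31.3% and 28.5%, and that of *Dkk3* was 14.8% and 19.9%.

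The antagonists differed in how evenly they were expressed among wild-type hearts. The CV in wild-type hearts was above 0.5 for *Dkk1*, *Dkk2* and *Wif1*, of which the last pair was tested, and 2.65% of all genes tested were above 0.5. It was larger in wild-type than in KO hearts for 5 of the 7 tested members and for 65.4% of all genes. *Dkk2* is in both counts and passed the filter on low values through its wild-type mean alone, so nothing is read from them. Markers of skeletal muscle and skeleton were also spread widely in wild-type hearts, and some of them in KO hearts too. The 3 skeletal muscle genes *Myod1*, *Myog* and *Myf5* had CVs from 1.54 to 1.62 in wild-type and from 0.26 to 1.18 in KO hearts, with summed means of 14.7 RPKM in wild-type and 1.67 RPKM in KO hearts. The 7 cartilage and bone genes had CVs from 0.46 to 1.54 in wild-type (6 of them above 0.5) and from 0.07 to 0.88 in KO hearts, with summed means of 62.0 and 33.8 RPKM, and 1 (*Ibsp*) was called lower. *Ibsp* (11.25 and 0.03 RPKM) passed the filter on low values through its wild-type mean alone. The 7 mesenchyme and valve genes had CVs from 0.09 to 0.55 in wild-type and from 0.01 to 0.10 in KO hearts, with summed means of 713 and 634 RPKM. None of these markers was listed at 0. The CVs of *Sfrp1*, *Sfrp5* and *Dkk3* in wild-type hearts were from 0.02 to 0.11. The part of these tissues in the values of the antagonists was not tested.

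**Figure D3:**
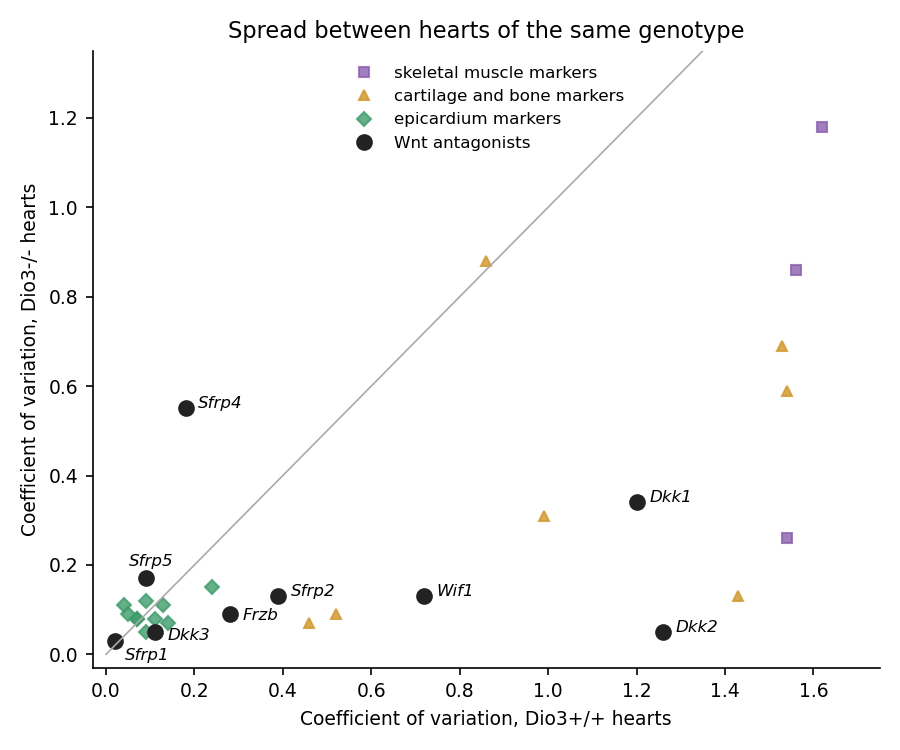
CV among the 4 hearts of each genotype, with wild-type on the horizontal and KO on the vertical axis, for the 9 antagonists and for marker genes of skeletal muscle, cartilage and bone, and epicardium. The gray line marks equal spread. *Dkk1* (1.20 in wild-type and 0.34 in KO hearts) and *Dkk2* (1.26 and 0.05) lie to the right. The skeletal muscle markers (1.54 to 1.62 and 0.26 to 1.18) and part of the cartilage and bone markers (whole list 0.46 to 1.54 and 0.07 to 0.88) also lie there. *Sfrp1* (0.02 and 0.03) lies near the origin, below the epicardial markers (0.04 to 0.24 in wild-type and 0.05 to 0.15 in KO hearts).

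The tissue was checked against its markers. For comparison, limma called 2.29% of all genes tested, and 19.7% had an unadjusted *P* value under 0.05. The 8 cardiomyocyte genes had summed means of 11359 RPKM in wild-type and 13435 RPKM in KO hearts, and 2 of them (*Tnni3* and *Ryr2*) were called higher. An unadjusted *P* value under 0.05 by limma was found for 5 of the 8, all higher in KO hearts. The 10 epicardial genes, among them *Wt1*, *Tbx18* and *Upk3b*, had summed means of 155 and 166 RPKM with 0 calls by limma or Welch's test, 2 unadjusted *P* values under 0.05, both for genes higher in KO hearts, and a median log2 difference of 0.09. The 7 endothelial and endocardial genes had 247 and 266 RPKM, with 0 calls by either test and 2 unadjusted *P* values under 0.05. The 4 smooth muscle genes (664 and 780 RPKM), the 5 macrophage genes (28.5 and 27.5 RPKM), the 4 lung epithelial genes (9.61 and 10.6 RPKM, with *Sftpc* listed at 0 in wild-type hearts) and the 3 nerve genes (4.23 and 3.73 RPKM) also had 0 calls by both tests and 1, 0, 0 and 0 unadjusted *P* values under 0.05. The 5 red cell genes were lower in KO hearts, as *Sfrp1* was, with summed means of 37087 and 12662 RPKM. They had 1 call (*Hbb-bh1*) and 5 unadjusted *P* values under 0.05 by limma. Also lower were the 5 tested cartilage and bone genes, the 2 tested skeletal muscle genes and 4 of the 5 macrophage genes. Unadjusted *P* values under 0.05 by limma were found for 3 of these cartilage and bone genes and for the 2 skeletal muscle genes. *Ibsp*, *Sp7*, *Runx2* and *Myod1* passed the filter on low values through their wild-type means alone, so nothing is read from the counts of these 2 lists. The 1 tested nerve gene was lower as well. Of the 7 mesenchyme and valve genes, 5 were lower and 2 higher, with a median log2 difference of −0.28. The share of all genes with a lower KO mean was not counted, so nothing is read from the number of lower genes in these lists. The 8 hepatocyte genes had 15.2 and 103 RPKM with 0 calls and 8 unadjusted *P* values under 0.05. Of these, *Apob*, *Ttr*, *Fgb* and *Ahsg* passed the filter on low values through their KO means alone, so nothing is read from that count. In wild-type hearts the CVs were from 0.27 to 0.40 for the red cell list and from 0.50 to 1.41 for the hepatocyte list, against 0.02 for *Sfrp1*. The part of any of these lists in the difference of *Sfrp1* was not tested. *Dio3* itself was at 0.35 RPKM (1.23) in wild-type and 0.13 RPKM (0.76) in KO hearts, too low to check the labels.

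The rest of the Wnt pathway was examined in 98 genes of 9 lists, of which 76 were tested. None was called by limma or by Welch's test in either direction, against 2.29% of all genes by limma. An unadjusted *P* value under 0.05 was found for 11 of the 76 (14.5%), all higher in KO hearts, against 19.7% of all genes. Of the 11, *Wnt9b* and *Lgr6* passed the filter on low values through their KO means alone. The median log2 difference of the 76 genes was 0.0014, beside 0.04 over all genes tested.

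Among the Wnt ligands, 9 of 19 were tested and their median log2 difference was 0.20. *Wnt5a*, a ligand known mainly for signaling without β-catenin, had the highest level, with 27.78 RPKM in wild-type (CV 0.24) and 24.23 RPKM in KO hearts (0.05) and a log2 difference of −0.19 (adjusted *P* = 0.515 by limma). *Wnt11*, a ligand of the outflow tract, had 5.20 and 4.87 RPKM. *Wnt9b* had the lowest adjusted *P* value of all lists (0.0702 by limma). Its means were 0.82 RPKM (0.07) and 1.24 RPKM (0.11), so that its hearts could not overlap. *Wnt9b* passed the filter on low values through the KO mean alone. *Wls*, which carries Wnt ligands to the cell surface, had 51.57 and 54.70 RPKM, and *Porcn*, which acylates them, had 1.33 and 1.40 RPKM.

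All 10 Frizzled receptor genes were tested, and 8 of them had lower means in KO hearts. The share of all genes with a lower KO mean was not counted, so nothing is read from the 8. The list had a median log2 difference of −0.13, 0 calls by limma or Welch's test and 0 unadjusted *P* values under 0.05. The CVs of the 10 genes were from 0.03 to 0.48 in wild-type and from 0.02 to 0.14 in KO hearts. The most abundant were *Fzd2*, with 35.90 RPKM (0.23) and 33.18 RPKM (0.03), and *Fzd1*, with 23.46 and 23.01 RPKM. The co-receptor genes *Ptk7* (33.91 and 30.39 RPKM) and *Ryk* (26.89 and 27.13 RPKM) were the highest of 6, with a median of −0.03 over the list. *Lrp5* and *Lrp6*, the co-receptors that DKK1 binds, had log2 differences of −0.0055 and 0.0030. Of the R-spondin genes and their receptors and ligases, which raise the number of Frizzled receptors at the cell surface or lower it, 6 of 9 were tested, and the highest were *Lgr4* (20.60 and 20.34 RPKM) and *Rspo3* (6.67 and 7.67 RPKM). *Lgr6*, at 0.63 and 1.06 RPKM, and *Znrf3*, a ligase that removes Frizzled receptors, at 5.72 and 6.48 RPKM, could not overlap between genotypes but had adjusted *P* values of 0.0728 and 0.110 by limma. With *Wnt9b*, they were the 3 of the 76 genes in that class, which held 3.86% of all genes tested, and were named after their values were seen. *Wnt9b* and *Lgr6* passed the filter on low values through their KO means alone, so nothing is read from that count.

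Of the intracellular genes, 20 were tested, with 0 calls by limma or Welch's test and 2 unadjusted *P* values under 0.05. Their log2 differences ranged from −0.34 to 0.14. The lowest of these, named after their values were seen, were those of *Tcf7l2*, a TCF factor (−0.34, adjusted *P* = 0.332 by limma), and *Pygo1*, a β-catenin co-factor (−0.32, adjusted *P* = 0.429). *Ctnnb1*, which encodes β-catenin, was at 200.37 RPKM (0.11) in wild-type and 199.60 RPKM (0.03) in KO hearts, a log2 difference of −0.01 with an interval from −0.17 to 0.16. *Csnk1a1*, a kinase that primes β-catenin for degradation, had 158.13 and 174.17 RPKM (adjusted *P* = 0.199 by limma). The median of the list was 0.01. The 5 tested feedback and target genes had a median of 0, with 41.71 RPKM for *Ccnd1* in KO against 44.27 RPKM in wild-type hearts and 12.44 RPKM for *Myc* in both. *Axin2*, a widely used readout of β-catenin activity, had 5.30 RPKM (0.36) and 5.15 RPKM (0.13), a log2 difference of −0.04 with an interval from −0.50 to 0.42, so smaller changes could not be detected. The 9 tested planar polarity genes, with *Daam1* (29.19 and 32.91 RPKM) and *Prickle1* (23.06 and 25.74 RPKM) as the highest, had a median of 0.03.

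Other inhibitors of the pathway, 9 of 15 tested, had a median log2 difference of 0.04 with 0 calls by limma or Welch's test and 0 unadjusted *P* values under 0.05. *Igfbp4*, an IGF-binding protein that also restrains Wnt signaling, had a higher mean than any of the 9 antagonists, with 151.84 RPKM (0.23) in wild-type and 125.48 RPKM (0.07) in KO hearts, although in wild-type hearts it differed from *Sfrp2* by less than the sum of their SDs. Its log2 difference of −0.27 equaled that of *Sfrp1* in size, but with a standard error of 0.14 and an adjusted *P* value of 0.341 by limma. *Kremen1*, a DKK receptor, had 17.38 RPKM in wild-type hearts and a log2 difference of 0.09.

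**Figure D4:**
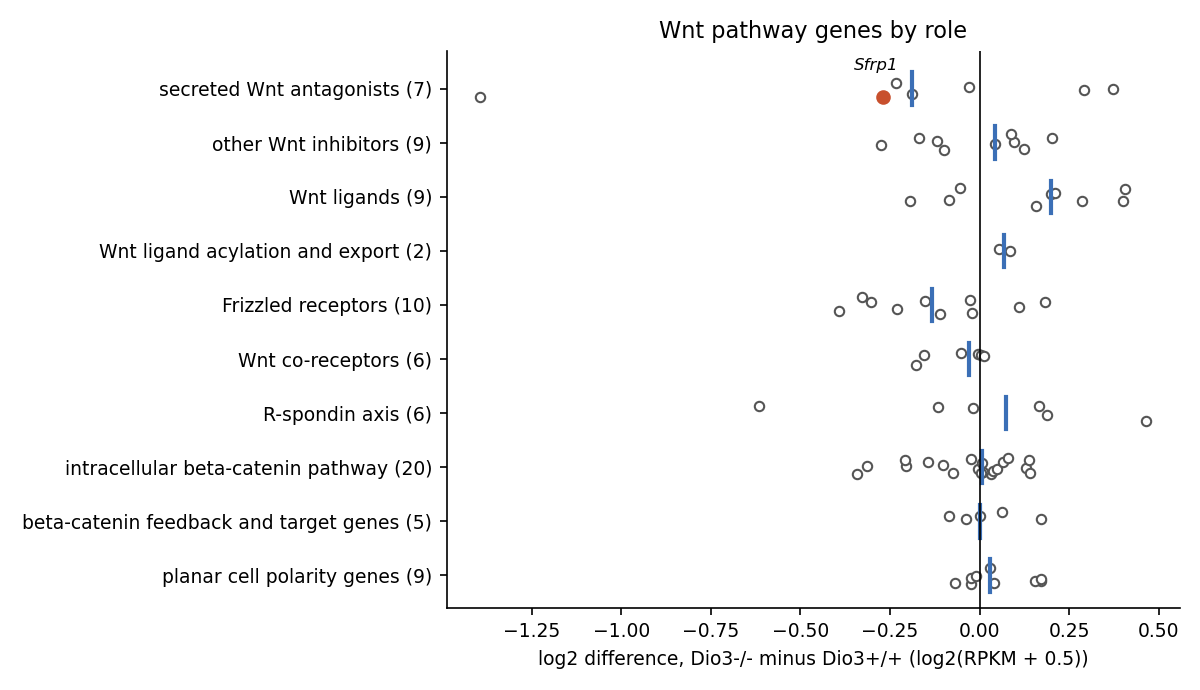
Log2 difference between KO and wild-type hearts for each tested gene of the Wnt pathway, grouped by role, with the number of tested genes in parentheses and the median of each group as a blue bar. Points are spread vertically only to be seen apart. *Sfrp1* is the only filled point, the gene whose adjusted *P* value by limma was under 0.05.

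The 5 genes whose pair of genotype means lay nearest to that of *Sfrp1*, by the distance over 2 genotype means on the log2 scale, were *Tubb2a*, *Cyb5*, *Jund*, *Glrx5* and *Brd3*, at distances from 0.06 to 0.11. *Tubb2a*, a β-tubulin gene, had 64.64 RPKM (0.08) and 50.79 RPKM (0.02), a log2 difference of −0.34 (adjusted *P* = 0.0214 by limma), and its hearts could not overlap either. The adjusted *P* values of the other 4 were from 0.125 to 0.566. A likeness over 2 means describes level and difference only.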

How the data were processed

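RNA of 8 hearts was sequenced after removal of ribosomal RNA. Alignment was done for the authors with Novoalign (version 2.08). Uniquely mapping reads were kept, and the coverage of every sample was brought to the depth of the smallest library by a linear factor. The genome build is not given in the sources used here, so no coordinates are printed. The deposited means were read as RPKM, the unit of the filter in the Methods, since the header names none. The deposited coefficient of variation (CV) is a ratio, the SD over the mean, and its largest value in the table, 2, is the limit for 4 values and an SD with n − 1. Both columns are rounded to 2 decimals. The authors' fold changes, *q* values and expression flags were not used.

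Genotypes were compared on the log2(mean + 0.5) scale. The SD on that scale was taken as the CV times mean/(mean + 0.5), over ln 2. Variances (6 residual degrees of freedom) were moderated by limma 3.58.1 in R 4.3.3 toward a trend in mean level, worth 3.52 further degrees of freedom. The method was run on simulated data with differences larger than that of *Sfrp1* and the same spread in both genotypes. Small differences, and unequal spreads like those of *Dkk2* and *Wif1*, were not covered. *P* values were adjusted over the 32703 rows in which a genotype mean exceeded 1 RPKM, and genes were counted by their row with the highest mean. Nothing states that the hearts came from separate litters, so *P* values measure only the spread between these hearts.

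The genes and lists were chosen with earlier results of these data known. Named from each list were called genes and the 2 with the highest mean, and beside these the 5 genes nearest to *Sfrp1* and *Dio3*. *Lrp5*, *Lrp6* and *Axin2* were named for their role after their values were seen, and the marker genes as examples of their lists. Of the list symbols, 4 were found under older symbols, and *Hba-a1* was not analysed here. Python 3.11.15, pandas 2.3.3 and numpy 2.4.6 were used. The alternatives were other pseudocounts, filters and tests, centring, and the rounding of the spread.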

Additional observations from a re-analysis of the deposited data

How the results depend on the processing

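*Sfrp1* was lower in KO hearts under all 11 alternatives and kept an adjusted *P* value under 0.05 under 10 of them (0.00977 to 0.0299). With Welch's test it was 0.0502, so that the number of antagonists called lower became 0. That test called 0 of all genes tested lower. No antagonist was called higher under any alternative. The log2 difference of *Frzb* changed sign to 0.0095 with log-normal moments, an alternative chosen after seeing the data, which also moved *Sfrp2* to −0.10, *Dkk2* to −0.84 and *Wif1* to 0.59. The other 5 tested antagonists kept their direction and stayed above the threshold under each alternative that gave them a value (2 of the alternatives dropped *Wif1* and *Dkk2*, and 1 dropped *Sfrp5* and *Frzb*), and the lowest adjusted *P* value of *Dkk3* was 0.0636. Among the Wnt lists, 2 genes (*Wnt9b* and *Lgr6*) were called higher without the mean-variance trend and the same 2 when rows with a CV over 0.5 were dropped. These 2 genes passed the filter on low values through their KO means alone, so nothing is read from these calls. Over all genes, 56 were called lower and 280 higher. Centring on the median log2 ratio (a shift of 0.04) gave 51 and 129. The total of 336 became 197 without an expression filter, 187 with each CV raised by 0.005, 27 with Welch's test, and 495 without rows of wide spread. The count of antagonists whose hearts cannot overlap was 1 with and without the allowance for rounding. Single hearts could not be left out, and no depth per heart was used. No paired analysis was possible because the table holds no values for single hearts.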
